A study of Mus musculus with 6 samples.

Results

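The 10 genes described here build and correct the microtubule spindle. They are the aurora kinases Aurka, Aurkb and Aurkc, the chromosomal passenger subunits Incenp, Birc5 and Cdca8, the polo-like kinase Plk1, and the microtubule assembly factors Ckap5, Tpx2 and Tacc3. They were chosen by name, with earlier results of these data known, so shares set beside those of all tested genes are descriptions only. All 10 had a row among the 25353 genes of the deposited table. RNA came from mouse germinal vesicle (GV) oocytes, which are fully grown oocytes arrested in meiotic prophase, in 3 libraries labelled KO and 3 wild-type (WT) libraries of strain C57BL/6J. Each library pooled 5 oocytes, and the comparison asks how loss of a mitofusin, a GTPase that fuses mitochondria, alters the transcripts of the oocyte. The series text gives an age of 8 weeks, while the age label of every sample reads P1. How the knockout allele was made, and which mouse gave which pool, is not given in the sources used here, so p-values measure only the spread between pools, which may be technical.

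The labels also disagree on the gene deleted, since the series text names Mfn2 and the sample genotypes read Mfn1-/-. Mfn2 had 5.25, 5.28 and 4.50 normalized read counts in the libraries labelled KO, against 25.5, 38.1 and 32.3 in WT libraries, and Mfn1 was not lower. The measurements thus go against the genotype label, and a direction below sets libraries titled KO against libraries titled WT. Libraries held 6450191 to 7992598 reads assigned to genes. A normalized read count is a gene's reads in a library after division by that library's size factor, set by the authors.

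Mouse oocytes have no centrioles and assemble the meiotic spindle from many microtubule organizing centres and from the chromosomes. Aurora A, activated by TPX2 and by its own phosphorylation, acts at these centres and along spindle microtubules. Aurora B and its germ-cell paralogue aurora C bind INCENP, survivin (Birc5) and borealin (Cdca8) in the chromosomal passenger complex, which corrects wrong kinetochore attachments. TACC3 and the microtubule polymerase CKAP5 (chTOG) bind each other on the spindle. At the GV stage the transcripts of these proteins are held in store for the divisions to come, and several are translated only after meiosis resumes.

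In the libraries labelled KO, 2 of the 10 transcripts fell, Ckap5 to 62% and Tpx2 to 74% of the WT level, and none rose. Of all tested genes, 1.41% fell and 1.87% rose by the same limma test (adjusted p under 0.05), and 3.28% changed in either direction. Rises were 57.1% of these calls, and 46.5% when trends on length and GC content were taken out. The fitted difference was below 0 for 9 of the 10, with a median log2 fold change of -0.29 over the 10 against -0.01 over all tested genes. Among the 9981 genes with at least 5 CPM (reads scaled to a common library total) in 3 libraries, 52.5% had a difference below 0 and the median was -0.02. Without KO replicate 1, all 10 were below 0 and Ckap5 alone passed. In 7 of the 10 genes every library labelled KO lay below every WT library, an order found in 11.7% of all tested genes and in 15.3% of those with 5 CPM. The count was also 7 without KO replicate 1, when 18.0% of all tested genes had this order. The 3 genes whose groups overlapped were Aurkb, Aurkc and Incenp. Under other tests 4 of the 10 fell in DESeq2 (3.13% of its tested genes fell) and with a filter of 5 CPM (3.62%). In edgeR (2.58%), and in the fit without those trends (1.83%), 3 fell.

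**Figure D1:**
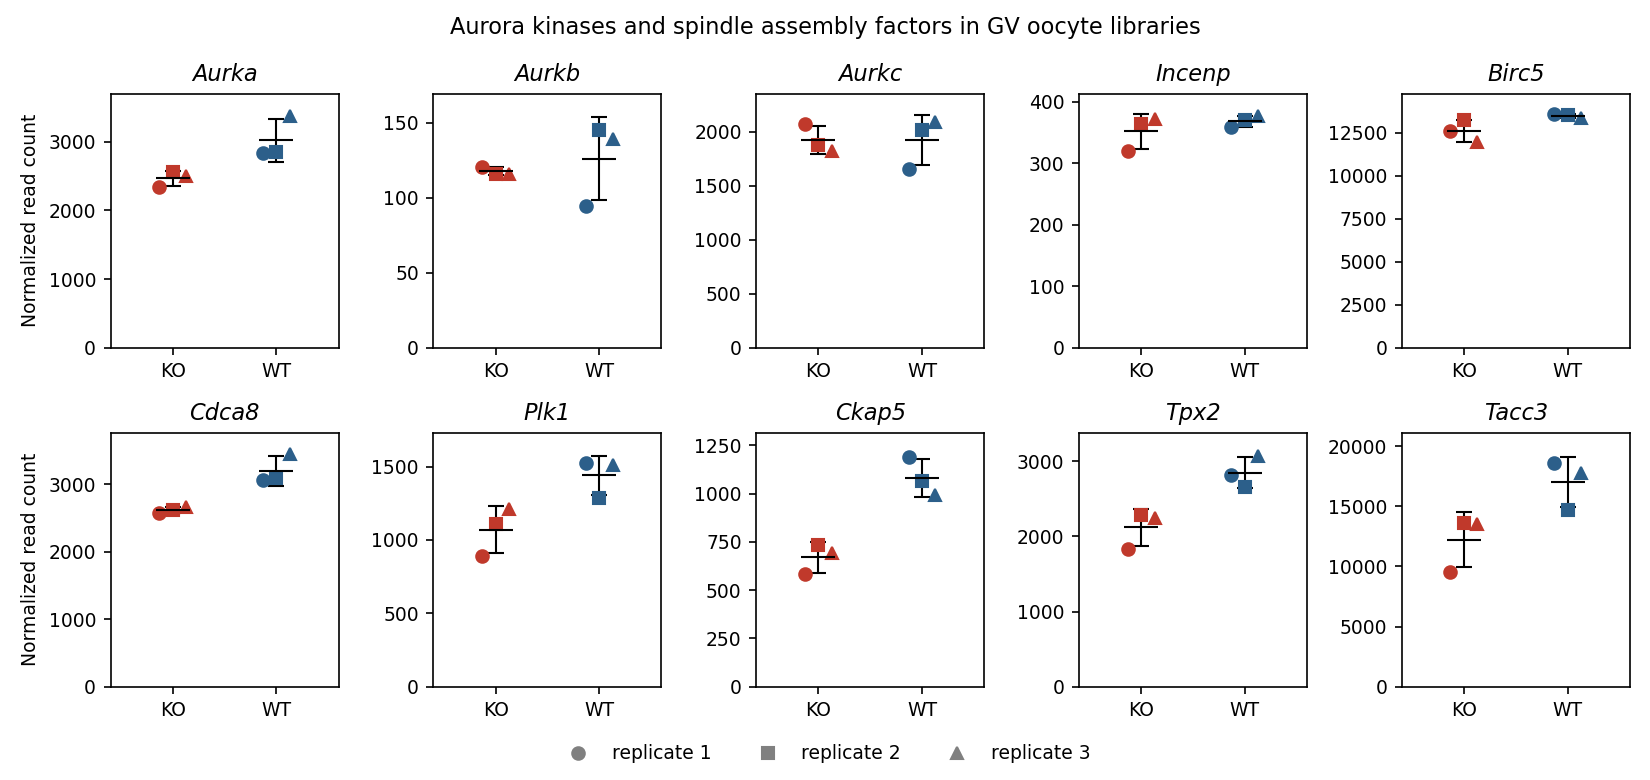
Normalized read counts (vertical axes, starting at 0) of the 10 genes in the 3 libraries labelled KO (left, red) and the 3 WT libraries (right, blue), with a symbol for each replicate number and bars for the mean and SD. Ckap5 separates the groups most clearly, with 582 to 733 in KO and 991 to 1189 in WT, while Aurkb, Aurkc and Incenp overlap.

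Ckap5, the polymerase that adds tubulin to microtubule plus ends, had the largest difference of the 10. The gene lies on chromosome 2 (91526762 to 91620664, plus strand, GRCm38). It had 582, 733 and 693 normalized read counts in KO replicates 1 to 3, against 1189, 1066 and 991 in WT replicates 1 to 3. The highest KO library stayed well under the lowest WT library. The mean was 669.5 ± 78.4 in KO and 1082 ± 100 in WT (SD, n = 3 each). For Ckap5 the log2 fold change was -0.69 (SE 0.12, 95% interval -0.95 to -0.44, limma adjusted p = 0.0066). Ckap5 passed whichever of the 6 libraries was left out, with log2 fold changes of -0.76 to -0.60 and limma adjusted p-values of 0.00474 to 0.0381. Between 554 and 1146 reads stood behind each value, and none of 264 windows of 75 bases along the transcript matched another gene.

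Tacc3, the coiled-coil partner that holds CKAP5 and clathrin on spindle microtubules, lies on chromosome 5 (33658128 to 33678995, plus strand). It had 9568, 13626 and 13493 normalized read counts in the libraries labelled KO, against 18627, 14663 and 17741 in WT. The groups did not overlap, but KO replicate 1 was far below the other libraries labelled KO. The log2 fold change of -0.49 (SE 0.14, 95% interval -0.78 to -0.20) missed the threshold (limma adjusted p = 0.0616), and without KO replicate 1 it was -0.32 (adjusted p = 0.0797). The count tests placed Tacc3 on the other side of the threshold, with an adjusted p of 0.0485 in edgeR and 0.0145 in DESeq2. Tacc3 overlaps Tmem129 on the opposite strand, whose own row averaged 26.4 in KO and 28.8 in WT.

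Tpx2, the Ran-released factor that activates aurora A and nucleates microtubules near chromatin, lies on chromosome 2 (152847964 to 152895321, plus strand). Its normalized read counts were 1834, 2284 and 2242 in the libraries labelled KO, against 2821, 2654 and 3071 in WT. All KO values lay below all WT values, by a smaller margin than for Ckap5. The mean was 2120 ± 249 in KO and 2849 ± 210 in WT (SD, n = 3 each). For Tpx2 the log2 fold change of -0.43 (SE 0.11, 95% interval -0.67 to -0.20) was just past the threshold (limma adjusted p = 0.0451). Leaving out any single library ended that call, with adjusted p-values of 0.0521 without KO replicate 1 to 0.184 without WT replicate 3 in limma.

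Plk1, the kinase that drives resumption of meiosis, spindle assembly and kinetochore attachment, lies on chromosome 7 (122159439 to 122169873, plus strand). It had 893, 1105 and 1209 normalized read counts in the libraries labelled KO, against 1521, 1288 and 1507 in WT. The groups were apart, though KO replicate 3 and WT replicate 2 came close. Plk1 had a log2 fold change of -0.44 (SE 0.12, 95% interval -0.70 to -0.17), short of the threshold (limma adjusted p = 0.0636). It was -0.31 without KO replicate 1 (adjusted p = 0.0986), and -0.53 without KO replicate 3, where it passed (0.0446). DESeq2 gave an adjusted p of 0.025 and edgeR 0.0551. Of the windows of Plk1, 9.41% matched the pseudogene Plk-ps1 or the overlapping model Gm44985, which have rows of their own. Plk-ps1 averaged 6.51 in KO and 9.56 in WT, and Gm44985 1.90 in KO and 4.94 in WT.

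Among the kinases of the aurora family, none passed the test, and only for Aurka did the groups not overlap. Aurka (chromosome 2, 172356190 to 172370535, minus strand) had 2348, 2559 and 2495 normalized read counts in the libraries labelled KO, against 2837, 2850 and 3379 in WT. The KO libraries all lay lower, and WT replicate 3 stood above the other WT libraries. The fitted log2 fold change of Aurka was -0.29 (SE 0.10, 95% interval -0.51 to -0.07, limma adjusted p = 0.144). Aurkb (chromosome 11, 69045647 to 69051664, plus strand), the mitotic passenger kinase, had 121, 116 and 116 in KO, against 94.3, 145 and 139 in WT. Its KO values lay inside the WT range, and the log2 fold change of -0.08 had a 95% interval of -0.47 to 0.32 (limma adjusted p = 0.883). With 85 to 156 reads a library, Aurkb was the least deeply covered of the 10.

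Aurkc (chromosome 7, 6995300 to 7003091, plus strand), the kinase that takes the place of aurora B on chromosomes in mammalian meiosis, had 2069, 1873 and 1824 normalized read counts in the libraries labelled KO, against 1658, 2014 and 2094 in WT. The groups overlapped throughout, with WT replicate 1 the lowest and WT replicate 3 the highest library. The mean was 1922 ± 130 in KO and 1922 ± 232 in WT (SD, n = 3 each). The log2 fold change was 0.01 (95% interval -0.23 to 0.24, limma adjusted p = 0.99).

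The Aurkc value is uncertain, because 30 of its 54 windows of 75 bases matched Gm12463 with at most 1 mismatch. Gm12463 is annotated as a processed pseudogene on chromosome 4 (44752277 to 44753125, minus strand) and has its own row in the table. It had 2534, 2080 and 2201 normalized read counts in KO, against 2035, 2448 and 2593 in WT. These are higher than the values of Aurkc itself in every library. The part assigned to Aurkc was 44.7% to 47.4% of the pair's sum over the 6 libraries. The sum gave a log2 fold change of -0.03 (95% interval -0.26 to 0.21, limma adjusted p = 0.937). With matches to further pseudogenes on chromosome 7 included, 68.5% of the Aurkc windows were shared, and how the authors' counting divided such reads is not given in the sources used here. None of the windows of Aurka and Aurkb was shared.

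**Figure D2:**
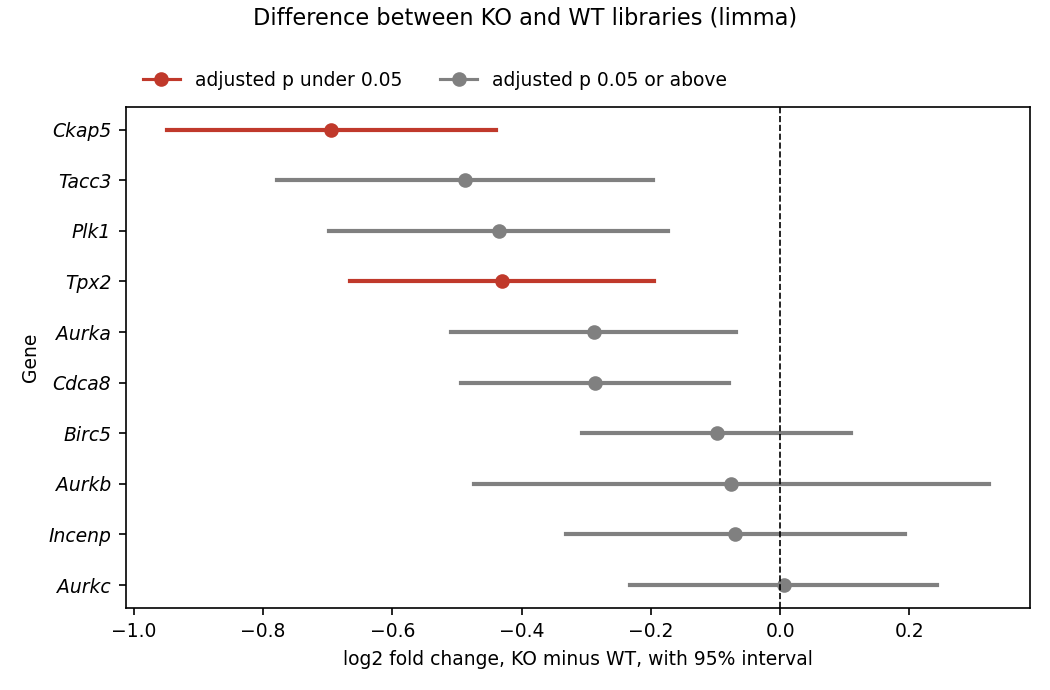
Log2 fold change of each gene, libraries labelled KO minus WT, with its 95% interval from the limma fit across all genes (horizontal axis), and red for an adjusted p under 0.05. The intervals of 6 genes, from Ckap5 at -0.69 to Cdca8 at -0.29, lie below 0, and those of Birc5, Aurkb, Incenp and Aurkc include 0.

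None of the passenger subunits passed the test, and the groups were apart for Cdca8 and Birc5. Cdca8, the borealin that links the complex to centromeric nucleosomes and shugoshin (chromosome 4, 124918465 to 124939311, minus strand), had 2571, 2617 and 2669 normalized read counts in the libraries labelled KO, against 3061, 3089 and 3448 in WT. Both groups were tight and did not overlap. A log2 fold change of -0.29 (SE 0.10, 95% interval -0.49 to -0.08) missed the threshold (limma adjusted p = 0.123). The gene 9930104L06Rik, which overlaps Cdca8 on the other strand, averaged 28.2 in KO and 20.9 in WT. Birc5, the survivin that binds phosphorylated histone H3 (chromosome 11, 117849251 to 117855743, plus strand), had 12576, 13265 and 11967 in KO, against 13568, 13526 and 13337 in WT. The KO values were lower by a margin smaller than their own spread, and the log2 fold change was -0.10 (95% interval -0.31 to 0.11, limma adjusted p = 0.666). Incenp, the scaffold that activates aurora B and C (chromosome 19, 9872297 to 9899533, minus strand), had 319, 363 and 371 in KO, against 358, 370 and 376 in WT. Only KO replicate 1 lay outside the WT range on the low side, and the log2 fold change was -0.07 (95% interval -0.33 to 0.19, limma adjusted p = 0.828).

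The interval excluded 0 in 6 of the 10 genes (Ckap5, Tacc3, Plk1, Tpx2, Aurka and Cdca8), all on the low side. Of all tested genes, 8.83% were lower at an unadjusted limma p under 0.05. KO replicate 1 was the lowest of the 6 libraries in 7 of the 10 genes, against 22.8% of all tested genes and 24.2% of those with 5 CPM. The exceptions were Aurkb and Aurkc, lowest in WT replicate 1, and Birc5, lowest in KO replicate 3. Of 12 oocyte markers, KO replicate 1 was the lowest library for 6 (the zona pellucida genes Zp1, Zp2 and Zp3, the maternal-effect gene Nlrp5, and the transcription factors Figla and Nobox) and the highest for 1 (Oosp1). Zp3 had 12413, 22305 and 29703 in KO, against 36402, 29186 and 31130 in WT. Nobox had 2409, 3614 and 3883 in KO, against 3208, 2585 and 2582 in WT, so KO replicates 2 and 3 were the highest. Oocyte identity was plain in both groups, with none of these markers at 0 throughout a group. The summed value of these markers was 93755, 123853 and 139733 in KO, against 151917, 123894 and 151153 in WT, and the groups overlapped. Without Zp3, the other 11 summed to 81342, 101548 and 110031 in KO, against 115515, 94708 and 120023 in WT, which also overlapped. The part of these marker values in the results above was not tested. Normalized read counts are scaled by library, so they give neither the number of oocytes captured nor the RNA per oocyte.

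Markers of other ovarian cells moved in part with the groups. The summed value of the 7 theca and stroma markers in the table was 11.6, 16.9 and 12.6 in KO, against 756, 45.6 and 119 in WT, with Col1a1, Col1a2 and Col3a1 at 0 in every KO library. Most of the WT replicate 1 value came from Cyp11a1 (604). Col1a2 and Col3a1 were above 0 in WT replicate 1 alone (7.76 each), and Col1a1 was at 1.11 or below in WT. The 12 granulosa markers summed to 2703 to 3316 in KO and 2855 to 3626 in WT, of which Serpine2, also present in oocytes, gave most. Without Serpine2, the other 11 summed to 495 to 627 in KO and 611 to 834 in WT. The 7 immune markers summed to 468 to 603 in KO and 370 to 451.9 in WT, nearly all of it from C1qb (453 to 592 in KO and 331 to 430 in WT). The other 6 summed to 8.45 to 14.4 in KO and 22.3 to 77.6 in WT, with Lyz2, C1qa, Adgre1, Cd74 and Tyrobp at 0 in every KO library. In WT, Tyrobp was above 0 in replicate 1 alone (3.33) and Adgre1 in replicate 3 alone (0.92). The 5 endothelial markers summed to 200 to 275 in KO and 238 to 287 in WT (Cdh5 at 0 in every library but WT replicate 1, at 1.11). Most of this came from Pecam1, and the other 4 summed to 58.1 to 62.0 in KO and 88.7 to 99.7 in WT. The 7 surface epithelium markers summed to 18.0 to 37.8 in KO and 27.0 to 41.0 in WT. Krt19 was at 0 in every library but WT replicate 1 (1.11), and Upk1b in every library but KO replicate 1 (1.05). The part of these cells in the results was not tested. Leaving out WT replicate 1 cannot test it, since the other WT libraries also lay above every KO library in the theca and stroma sum. Without WT replicate 1, the log2 fold change of Ckap5 was -0.62 (limma adjusted p = 0.0381), that of Tpx2 -0.44 (0.122) and that of Plk1 -0.39 (0.203).

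Levels can be set between genes only per length, here as normalized read counts per kilobase of the longest annotated transcript, scaled to the same total in every library. On that scale Tacc3 (1148 ± 228 in KO and 1510 ± 188 in WT) and Birc5 (1027 ± 35.5 in KO and 1040 ± 25.3 in WT) stood at the top (SD, n = 3 each). Their WT levels stood at percentiles 99.5 and 99.3 of the tested genes. Aurka (352 ± 18.7 in KO and 408 ± 35.5 in WT), Aurkc (373 ± 20.6 in KO and 353 ± 38.4 in WT) and Cdca8 (212 ± 8.49 in KO and 245 ± 12.8 in WT) came next. On this length Plk1 and Tpx2 were close to each other, at 132 ± 22.3 and 132 ± 16.8 in KO and 168 ± 15.2 and 168 ± 10.5 in WT. Ckap5 (27.3 ± 3.38 in KO and 41.8 ± 4.47 in WT), Incenp (27.7 ± 2.64 in KO and 27.4 ± 0.33 in WT) and Aurkb (16.4 ± 0.36 in KO and 16.6 ± 3.54 in WT) were the lowest.

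In WT libraries, each level in this order was apart from the next over all 3 libraries, except for Plk1 and Tpx2. In the libraries labelled KO, Tacc3 and Birc5, Aurkc and Aurka, Plk1 and Tpx2, and Incenp and Ckap5 overlapped as neighbours. Ckap5 was above Incenp in every WT library, at 37.6 to 46.5 against 27.1 to 27.7, but their ranges overlapped in KO, at 23.4 to 29.5 for Ckap5 and 24.8 to 30.03 for Incenp. By coding length instead, Birc5 (3921 in KO and 4073 in WT) stood above Tacc3 (839 in KO and 1130 in WT), since most of the longest Birc5 transcript is untranslated. On that scale Cdca8 (350.3 in KO and 414.9 in WT) stood above Aurka (258 in KO and 306 in WT). Tpx2 (124 in KO and 162 in WT) then stood above Plk1 (77.5 in KO and 101 in WT). By merged exon length Plk1 (203) was above Cdca8 (191) in WT, and Aurkc was above Aurka, at 390.7 against 369.6 in WT. The place of Cdca8 in the main order rests on a longest annotated transcript of 3358 bases, while its longest coding transcript has 1626.

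**Figure D3:**
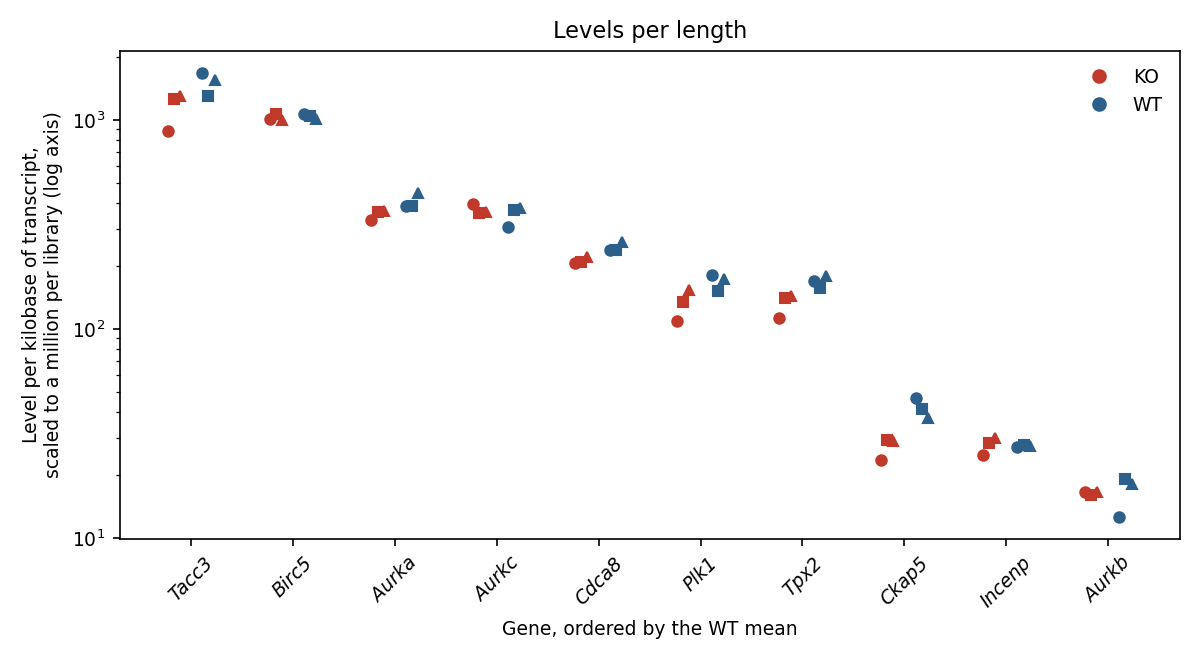
Level per kilobase of the longest annotated transcript, scaled to the same total in every library (vertical log axis), for each gene ordered by its WT mean, with libraries labelled KO in red left of WT libraries in blue and a symbol for each replicate number. Tacc3 and Birc5 lie between 886 and 1675, Ckap5, Incenp and Aurkb between 12.6 and 46.5, and Ckap5 overlaps Incenp in KO.

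Within the aurora family, transcripts of Aurka and Aurkc made up nearly all of the summed level per length. Aurka held 44.5%, 49.0% and 49.0% of it in KO, against 54.7%, 49.7% and 53.1% in WT. Aurkc held 53.3%, 48.8% and 48.7% in KO, against 43.5%, 47.8% and 44.8% in WT, with the uncertainty of its copies. Aurkb held 2.18% to 2.24% in KO and 1.78% to 2.47% in WT. These shares rest on the longest transcripts, and the order of Aurka and Aurkc changes with the length used, as given above. Among the passenger subunits, Birc5 held 81.1% ± 1.01 in KO and 79.2% ± 1.18 in WT of the summed level of Birc5, Cdca8 and Incenp (SD, n = 3 each). That share also changes with the length used. By coding length the WT levels were 4073 for Birc5, 415 for Cdca8 and 17.7 for Incenp.

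Ratios of partner genes within a library do not depend on library scaling, and 5 were compared. With 3 libraries against 3, the exact two-sided permutation test cannot give a p below 0.1, so none could pass. The ratio of Tpx2 to its client Aurka was 0.781, 0.893 and 0.898 in KO, against 0.995, 0.931 and 0.909 in WT (exact p = 0.1, 0.25 adjusted over the 5 ratios). The ratio of Cdca8 to Incenp was 8.05, 7.20 and 7.19 in KO, against 8.54, 8.35 and 9.17 in WT (exact p = 0.1, adjusted 0.25). Both ratios were lower in every KO library, that of Tpx2 to Aurka by 0.14 on the log2 scale, or 0.08 without KO replicate 1. The ratio of Ckap5 to Tacc3 was 0.0608, 0.0538 and 0.0514 in KO, against 0.0638, 0.0727 and 0.0558 in WT, and the groups overlapped (exact p = 0.2, adjusted 0.333). The ratios of Aurkc to Aurkb (15.7 to 17.1 in KO and 13.9 to 17.6 in WT, exact p = 0.5) and Birc5 to Incenp (32.2 to 39.4 in KO and 35.5 to 37.9 in WT, exact p = 0.8) overlapped more.

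Other genes of spindle assembly were taken from 8 lists of 110 symbols, of which 106 were tested. The lists too were chosen with earlier results of these data known. In the libraries labelled KO 5 of these rose and 6 fell, or 10.4% changed, against 3.28% of all tested genes (1.87% rose and 1.41% fell). Calls were more frequent among expressed genes. With the filter of 5 CPM in 3 libraries, 15 of 96 list genes changed, against 812 of 9981 tested genes. The 11 calls were 5 without KO replicate 2 or WT replicate 1, 3 without WT replicate 2 or WT replicate 3, and 15 without KO replicate 1. Of the tested genes of the lists, 75 (70.8%, against 51.3% of all tested genes) had a log2 fold change below 0 and the median was -0.12. Without KO replicate 1 these were 68 and -0.10, and without KO replicate 3 the median was -0.19. Among regulators of aurora A and Plk1, 1 of 15 fell and none rose, with a median of -0.10 (-0.16 without KO replicate 3). That gene was Cep192, the centrosomal scaffold that recruits both kinases, at 189 ± 19.4 in KO and 291 ± 28.1 in WT (SD, n = 3 each), a log2 fold change of -0.62 (limma adjusted p = 0.029, and 0.0804 to 0.135 without KO replicate 2 or any WT library). Acentriolar organizing centres and pericentriolar material had no gene past the limma test in 11, while 10 were below 0 and the median was -0.33. Pcm1, a centriolar satellite protein, had the smallest p of these, with a log2 fold change of -0.39 (limma adjusted p = 0.0724). It passed without KO replicate 1 (0.0242), with the 5 CPM filter (0.0497), with the GC and length trend removed (0.0161) and in DESeq2 (0.0298).

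Of the 18 genes of the gamma-tubulin ring and augmin, which nucleate and branch microtubules, 1 rose and 2 fell. Their median was -0.05, and -0.19 to -0.06 with single libraries left out. Mzt1, a small subunit that lets the ring be recruited, rose by 0.82 on the log2 scale, at 533, 539 and 532 in KO against 224, 322 and 384 in WT (limma adjusted p = 0.0134). The augmin subunits Haus7 (log2 fold change -0.92, 187, 203 and 138 in KO against 287, 278 and 448 in WT) and Haus1 (-0.61, 369, 306 and 245 in KO against 543, 442 and 414 in WT) fell, with limma adjusted p-values of 0.0166 and 0.0437. The limma adjusted p of Mzt1 stayed under 0.05 without each library in turn (highest 0.0497). That of Haus7 was 0.0541 without KO replicate 3 and 0.107 without WT replicate 3, and that of Haus1 was 0.0944 to 0.172 without any library but KO replicate 1.

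Of 15 Ran-dependent spindle factors 2 rose and none fell. Their median of 0.11 was 0.03 without KO replicate 3 and 0.02 without WT replicate 3. The import receptors Tnpo1 (566 ± 54.0 in KO and 399 ± 5.76 in WT) and Kpnb1 (importin beta, 560 ± 38.6 in KO and 400 ± 34.8 in WT) rose by 0.50 and 0.48 on the log2 scale (SD, n = 3 each, limma adjusted p = 0.032 and 0.0405). Without KO replicate 2 or any WT library their adjusted p-values were 0.0709 to 0.109 and 0.0798 to 0.168, and with the GC and length trend removed 0.0938 and 0.0814. For Tnpo1, 18.2% of the windows matched the copy Gm6493. The importin alpha Kpna2, of the same list, had a log2 fold change of -0.20 and did not pass (limma adjusted p = 0.381). Tpx2, the importin cargo among the members, fell, as given above, and a link to these receptors was not tested.

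Slain1, a partner of CKAP5 at growing microtubule ends, was the only one of 11 TACC, TOG and CLASP factors to change. It rose by 0.80 on the log2 scale, at 649, 479 and 457 in KO against 268, 297 and 335 in WT (limma adjusted p = 0.00959), and passed without each library in turn (highest adjusted p 0.0444). The list had a median of -0.16 (-0.09 without WT replicate 1). Among 12 genes of the central spindle and cytokinesis, 11 were below 0 (median -0.25) and the kinesin Kif20b fell, at 1160 ± 134 in KO and 1615 ± 138 in WT (SD, n = 3 each, log2 fold change -0.48, limma adjusted p = 0.0329, and 0.0632 to 0.153 without KO replicate 2 or any WT library). Of 13 genes that recruit or oppose the passenger complex, Pds5b, a cohesin regulator, rose by 0.67 on the log2 scale (limma adjusted p = 0.0385) and none fell. The median of these genes was -0.09, and -0.13 to -0.02 with single libraries left out. The adjusted p of Pds5b was 0.0605 to 0.133 without any library but KO replicate 1, and 0.0826 with the GC and length trend removed. Haspin, whose histone H3 mark recruits survivin, had a log2 fold change of -0.16 (limma adjusted p = 0.513).

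All 11 tubulins tested were below 0 in limma, also with TMM scaling, against 51.3% of all tested genes. In DESeq2 10 of 13 were below 0, in edgeR 9 of 11, with the GC and length trend removed 10 of 11, and without KO replicate 1 the limma count was 8 of 11. The median was -0.16, and it was -0.09 without KO replicate 1 and -0.30 without KO replicate 3. Those that passed the test were 2 alpha-tubulins that fell, Tuba3a (2827 ± 156 in KO and 4393 ± 594 in WT, log2 fold change -0.63, limma adjusted p = 0.00775) and Tuba3b (413 ± 159 in KO and 870 ± 176 in WT, log2 fold change -1.14, adjusted p = 0.0145), with SD and n = 3 each. Of the windows of Tuba3a 46.6%, and of Tuba3b 36.2%, match the other or further copies, so how their fall divides between them is uncertain. Without WT replicate 2 the limma adjusted p-values were 0.0549 and 0.0843, and without WT replicate 3 that of Tuba3a was 0.0538. In DESeq2 Tuba3b did not pass (adjusted p = 0.0661). The per-gene values of the 8 lists are plotted beside the 10 members.

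**Figure D4:**
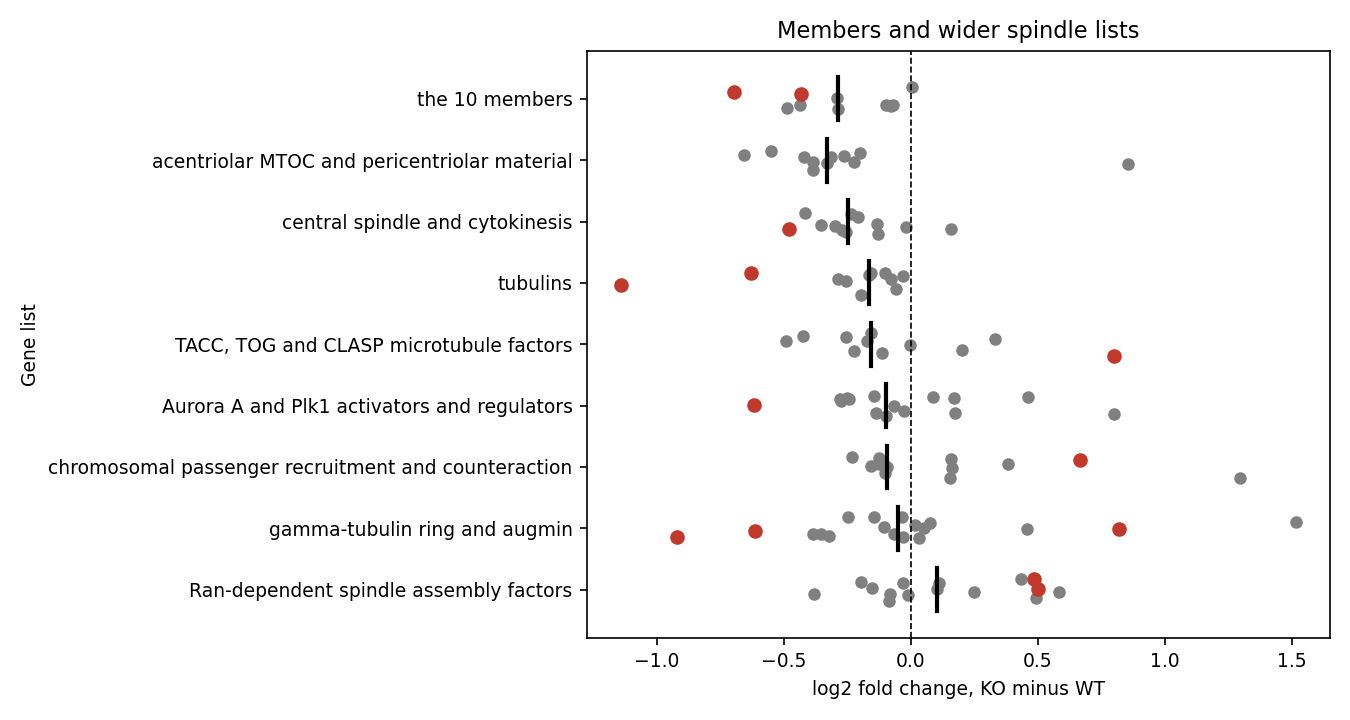
Log2 fold change of each gene, libraries labelled KO minus WT (horizontal axis), for the 10 members and the 8 lists of other spindle genes (rows), with red points for a limma adjusted p under 0.05 and a black bar for the list median. Medians run from -0.33 for acentriolar organizing centres to 0.11 for Ran-dependent factors, a median that was 0.02 without WT replicate 3.

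Because the cDNA was primed on poly(A) tails, 3′ ends were read for the cytoplasmic polyadenylation element, a U-rich motif through which stored oocyte mRNAs gain poly(A) and enter translation. The DNA letters TTTTAT or TTTTAAT were searched on the transcript strand in the last 100 bases of the longest coding transcript (GENCODE release M21). They were present in 4 of the 10 genes and in 19.1% of 13129 tested genes with a 3′ UTR of at least 100 bases. The 4 sites, with the element in capitals, are shown because they place Ckap5, which fell, beside the 3 aurora kinases, which did not pass the test.
Ckap5 (chr2:91620625-91620654, plus strand, GRCm38): aatttaagagacTTTTATaaataaagtttg
Aurka (chr2:172356237-172356266, minus strand, GRCm38): ttaaaggctattTTTTATgttggagttctg
Aurkb (chr11:69051616-69051645, plus strand, GRCm38): tgaagaacaacaTTTTATaataaagtctta
Aurkc (chr7:7003036-7003065, plus strand, GRCm38): gcttgttttctcTTTTATgaagtgatgtta
The element ended 22 bases before the annotated transcript end in Ckap5, 53 in Aurka, 31 in Aurkb and 38 in Aurkc. Tpx2, Plk1, Tacc3, Cdca8, Birc5 and Incenp had no match in this window. For Aurka and Incenp no AATAAA or ATTAAA was found in the last 50 bases, so the annotated end may not be the one used.

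Promoters were read for the cell cycle genes homology region (CHR), the element TTTGAA that is bound by the MuvB complex in dividing cells, and for the CCAAT box. RefSeq promoters of 300 bases (GRCm38.p6, 250 bases before and 50 after the start) were given for 7 of the 10 genes. None was given for Tpx2, Aurkb and Incenp. On either strand TTTGAA occurred in 4 of these 7 and in 17.9% of 32851 promoters, and CCAAT in 5 of 7 and in 37.4%. In all of the 7 but Aurkc, every KO library lay below every WT library. That order in the 4 with TTTGAA therefore tells nothing about the motif. Ckap5 alone of the 4 passed the limma test. The 4 promoters are shown with both motifs in capitals, on either strand.
Ckap5 (chr2:91526512-91526811, plus strand, GRCm38.p6): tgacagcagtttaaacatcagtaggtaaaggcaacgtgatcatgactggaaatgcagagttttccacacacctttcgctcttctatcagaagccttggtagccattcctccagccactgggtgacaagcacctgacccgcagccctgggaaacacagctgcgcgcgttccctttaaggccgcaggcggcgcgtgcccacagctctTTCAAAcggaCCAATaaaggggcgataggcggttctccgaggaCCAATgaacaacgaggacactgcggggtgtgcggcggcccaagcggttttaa
Plk1 (chr7:122159185-122159484, plus strand, GRCm38.p6): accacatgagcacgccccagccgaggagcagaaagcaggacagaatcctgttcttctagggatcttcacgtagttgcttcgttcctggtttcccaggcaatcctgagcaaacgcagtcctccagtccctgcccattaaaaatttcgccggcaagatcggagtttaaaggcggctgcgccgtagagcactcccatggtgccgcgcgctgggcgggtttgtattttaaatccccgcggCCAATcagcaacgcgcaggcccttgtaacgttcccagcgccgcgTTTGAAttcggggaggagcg
Aurka (chr2:172370521-172370820, minus strand, GRCm38.p6): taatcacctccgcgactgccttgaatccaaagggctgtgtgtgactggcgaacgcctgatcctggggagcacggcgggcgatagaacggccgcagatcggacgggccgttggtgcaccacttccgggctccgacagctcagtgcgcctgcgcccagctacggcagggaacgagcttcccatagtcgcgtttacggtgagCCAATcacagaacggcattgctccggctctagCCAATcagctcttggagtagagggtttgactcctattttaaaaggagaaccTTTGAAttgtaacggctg
Cdca8 (chr4:124936868-124937167, minus strand, GRCm38.p6): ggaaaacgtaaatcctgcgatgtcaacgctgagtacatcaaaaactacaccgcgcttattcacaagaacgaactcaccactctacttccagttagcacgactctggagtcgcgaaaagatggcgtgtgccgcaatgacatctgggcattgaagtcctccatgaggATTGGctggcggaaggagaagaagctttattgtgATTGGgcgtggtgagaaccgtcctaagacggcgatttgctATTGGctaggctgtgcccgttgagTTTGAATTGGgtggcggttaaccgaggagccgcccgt
The TTTGAA starts at position 31 in Plk1, 33 in Aurka and 14 in Cdca8, counted from the annotated start as 1, and at -45 in Ckap5, where it is written as TTCAAA. In Cdca8, whose RefSeq start lies inside the annotated gene, it overlaps a CCAAT box on the other strand. Birc5 and Tacc3, whose KO libraries also all lay below WT, had neither motif, and Aurkc had a CCAAT box alone. A match is a description of the letters, and fully grown GV oocytes are known to transcribe little.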

How the data were processed

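Libraries were made from 5 pooled GV oocytes each by Smart-Seq2 and Nextera XT, without strand or molecular identifiers, and read as 75-base pairs, per the labels' protocols. Tools named in the submitters' processing notes are STAR, cutadapt, FastQC, DESeq2 and DESeq, with builds mm10 and GRCm38. The deposited values are a signal, made with Partek and DESeq2 per the file headers, in which each read count was scaled by a library's size factor. Dividing by the value of 1 read gave whole reads for 100% of values above 0 (tolerance 0.1 reads). A listed 0 allows a count of up to 3 reads. This limit is one of counting error only, as PCR copies are not separate molecules.

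The filter asked for 3 libraries at 1 or more and left 18762 genes, all 10 members among them. Values were transformed to log2(value + 1), a scale that understates changes of low genes. Groups were compared with limma-trend (limma 3.58.1, R 4.3.3) over the 3 KO and 3 WT libraries, with no covariate and Benjamini-Hochberg adjustment at 0.05. Counts of recovered reads were tested with edgeR 4.0.16 (789 genes called) and DESeq2 1.42.0 (827) as alternatives. The fits were tested on simulated data.

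The members and lists were chosen with earlier results of these data known, and no adjustment was made over a list alone. All members are named, and from each list up to 3 genes past the threshold, or else that of smallest p. Haspin, Kpna2, Zp1, Zp2, Zp3, Nlrp5, Figla, Nobox, Oosp1, C1qb, Cyp11a1, Pecam1 and the copies were named after their values were seen. Shared windows were taken every 25 bases of the longest coding transcript and aligned to GENCODE M21 transcripts with minimap2 2.31-r1302. Gene ends are given as the base before the deposited end, which lay 1 base past that of GENCODE in 95.6% of matched genes.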

Additional observations from a re-analysis of the deposited data

How the results depend on the processing

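No member rose under the 15 alternatives, against 0 rises in limma, and Ckap5 fell under all of them. The number of members that fell was 2. It was 4 with a filter of 5 CPM in 3 libraries (Plk1 and Tacc3 beside Ckap5 and Tpx2) and 4 in DESeq2, and 1 to 2 when single libraries were left out. It was 2 or 3 with the other pseudocounts, no filter, TMM scaling, edgeR or the GC and length trend removed. With the replicate numbers as a replicate block it was 1 (Ckap5, limma adjusted p = 0.0119), Tpx2 had an adjusted p of 0.0732, and 421 genes were called in all, but nothing shows that the numbers pair the samples (r of the deviations of same-numbered libraries, across genes, -0.08, -0.02 and -0.04). None of the KO libraries correlated best with the WT library of its own number.

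Over all genes 615 were called, and 112 to 889 with single libraries left out (321 without KO replicate 2, 379 without KO replicate 3, 262, 189 and 112 without WT replicates 1 to 3). Rises were 57.1% of the calls, and 46.5% with the GC and length trend removed. Of the wider spindle genes 11 were called, 17 in DESeq2, 6 with the replicate block and 3 to 15 with single libraries left out.

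Among members, the sign turned only for Aurkb and Aurkc, neither of which was called. With single libraries left out, the log2 fold change of Aurkb was -0.2715 to 0.0368 (above 0 without WT replicates 2 and 3) and that of Aurkc -0.10 to 0.0707 (below 0 without KO replicate 1 or WT replicate 1). Aurkc had -0.0028 in edgeR, -0.0011 in DESeq2 and -0.0254 when summed with Gm12463, an alternative chosen after seeing the data. The cause of these changes was not tested. Depth limits Aurkb most, at 85 to 156 reads a library.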
